A study of Populus trichocarpa with 12 samples.

Results

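Developing xylem of unmodified black cottonwood (Populus trichocarpa) was described from the RNA of 3 wild-type trees, out of 12 trees in the series. The trees were of the Nisqually-1 background, the genotype behind the species' reference genome, and were grown in greenhouse pots. Their age is not given in the labels. The other 9 trees carry a miR397a overexpression construct under the CaMV 35s promoter and were not used. The treatment label names that construct for all 12 trees, while titles, genotype labels and design text set the 3 trees described here apart as wild type. The members were the 3 wild-type columns of the authors' count table, with 1 transcript model kept for each of 41335 loci, the one with the most reads over the 3 trees. Each library is 1 tree, and no contrast between groups was made, so no test of significance is given. The values are descriptions of these 3 trees. The sources used here pair none of the loci with a gene name or function, so loci are given by their Potri identifiers, with the chromosome number that the identifier carries.

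Developing xylem is the layer of young wood just inside the cambium, the dividing cell layer of the stem. Its cells leave the cambium, enlarge, lay down a thick secondary wall of cellulose, xylan and lignin, and in vessels and fibres then die. Transcriptomes of this tissue are known for a strong output of a limited set of transcripts for wall building, beside those for protein synthesis and the cytoskeleton. A scraping of developing xylem also holds ray cells and can hold cambium or phloem. Markers of those cells could not be examined without gene names, and the tissue label was not checked against the defining markers of other cell types.

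Summed over loci, wild-type trees 1, 2 and 3 gave 13404681, 23611859 and 12580135 reads. Levels are given as CPM, the usual depth-scaled count, adjusted by TMM, a method that sets the libraries on the footing of their typical locus. They are not divided by transcript length, so a rank orders loci by the reads they drew and not by the number of transcript molecules. The TMM factors were 0.884, 1.19 and 0.952. With library totals in place of TMM, the median log2 ratio of tree 1 over tree 2 was -0.43, against -0.0086 with TMM, over the 23360 loci with at least 10 reads in each tree. That shift is larger than the median size of a log2 ratio between these trees, 0.14 with TMM. All levels and ratios below refer to the TMM scale.

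A mean of at least 1 CPM was reached by 23627 loci, 57.2% of all. In single trees 23538, 23703 and 23538 loci reached 1 CPM in trees 1, 2 and 3, a near constant number at a limit that is scaled by depth. Loci with at least 1 read, a limit not scaled by depth, numbered 30303, 32042 and 30384, with most in tree 2, the deepest library. No read was counted at 8127 loci (19.7%) in any of the 3 trees. Over the TMM-adjusted sizes of the 3 libraries together, a count of 0 allows a level of up to 0.0578 CPM (3 reads in all, counting error only). The median level of the loci over 1 CPM was 11.8 CPM. In bulk tissue, a low level from few expressing cells and a low level per cell cannot be told apart.

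Reads were concentrated on few loci, and far more so in trees 1 and 3 than in tree 2. The 10 loci with the most reads of each tree took 19.96% of the reads in tree 1, 4.39% in tree 2 and 16.5% in tree 3. The exact (Clopper-Pearson) 95% intervals were 19.93% to 19.98% for tree 1, 4.38% to 4.40% for tree 2 and 16.5% to 16.6% for tree 3, and cover counting error only. The top 100 loci took 37.6%, 18.2% and 31.6%, and the top 1000 loci took 59.1%, 45.1% and 55.6% in trees 1, 2 and 3. As a mean over trees, the top 100 loci held 29.1 ± 9.94% of the reads (SD, n = 3). To reach 50% of the reads, 427 loci were needed in tree 1, 1341 in tree 2 and 642 in tree 3.

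The difference between the trees in this concentration came with 36 loci in 4 runs of neighbours. These runs were chosen on the values themselves: loci with a mean of at least 10 CPM that differed at least 4-fold between the highest and the lowest tree, in runs of at least 3 with at most 1 other locus between members. Together the 36 loci held 27.1% of the reads in tree 1, 3.38% in tree 2 and 19.1% in tree 3. With their reads taken out, the 10 loci with the most reads held 4.52%, 4.24% and 4.69% in trees 1, 2 and 3. The top 100 then held 17.3%, 16.7% and 18.1%, or 17.4 ± 0.73% (SD, n = 3), and 1378, 1450 and 1287 loci reached 50% of the remaining reads. Without these loci the 3 trees were close in how they spread their reads over loci, while the share on the 36 loci differed several fold. Both follow in part from the rule, which chose the 36 loci for their difference between these trees.

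**Figure D1:**
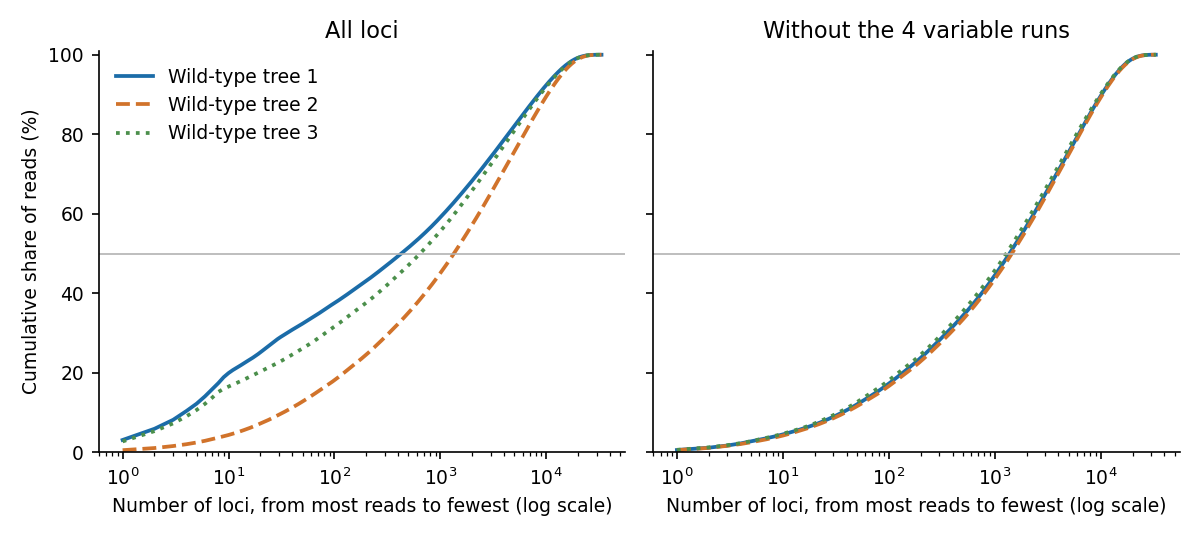
Cumulative share of reads (%) against the number of loci, ordered from most to fewest reads in each tree (log axis), for wild-type trees 1, 2 and 3, with all loci (left) and without the 36 loci of the 4 variable runs (right). The curves stand apart on the left, where the top 10 loci hold 19.96%, 4.39% and 16.5%, and lie close together on the right, where they hold 4.52%, 4.24% and 4.69%.

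The chromosome 5 run took most of these reads. It spans Potri.005G132300 to Potri.005G133400, with 11 members among 12 neighbours. It held 19.9% of the reads of tree 1, 2.94% of tree 2 and 16.8% of tree 3, or 13.2 ± 9.05% (SD, n = 3). The 9 most abundant loci of the whole data set by mean level were all members of it. Its leading locus, Potri.005G132800, stood at 35444 CPM in tree 1, 3835 CPM in tree 2 and 29031 CPM in tree 3. Tree 2 was lowest at every member, and trees 1 and 3 were near each other: tree 1 over tree 3 ran from 1.05 to 2.30, with a median of 1.22. The ratio of the highest to the lowest tree lay between 6.64 and 11.6 for all 11 members. The 1 locus inside the run that was not a member, Potri.005G133200, behaved otherwise, with 9.03, 15.7 and 6.18 CPM in trees 1, 2 and 3. There tree 2 was the highest.

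The chromosome 14 run differed most between the trees. It spans 13 neighbours from Potri.014G185400 to Potri.014G186600, all members. It held 3.45% of the reads of tree 1, 0.0808% of tree 2 and 0.997% of tree 3. The order tree 1, tree 3, tree 2 held at all 13 loci. Potri.014G186200 had 4996, 51.1 and 1232 CPM in trees 1, 2 and 3, a 97.7-fold range. The widest range belonged to Potri.014G186300, Potri.014G186400 and Potri.014G186500, which had identical counts of 12936, 26 and 1346 reads and therefore a 1177-fold range between tree 1 and tree 2. Identical counts can arise when the same reads are counted at each locus, and these 3 are read here as 1 measurement. Potri.014G185800 and Potri.014G185900 were nearly equal, with 60513, 1777 and 15008 reads against 60511, 1769 and 15007 in trees 1, 2 and 3. The 13 loci are therefore not 13 separate measurements. The run's share may count some reads more than once, which was not tested. The 10 loci of at least 10 CPM with the widest range in these trees were all in this run. Tree 1 over tree 3 had a median of 4.07 here, against 1.22 in the chromosome 5 run. The runs on chromosomes 5 and 14 therefore did not keep 1 ratio across the trees.

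The chromosome 8 run has 8 members, from Potri.008G223900 to Potri.008G224600, and held 2.136%, 0.157% and 0.753% of the reads of trees 1, 2 and 3. Its mean levels climbed along the identifier order up to Potri.008G224500, the locus before the last. Potri.008G224500 reached 11642, 490 and 3115 CPM in trees 1, 2 and 3, while Potri.008G224000 had 125.8, 9.05 and 250.03 CPM. At Potri.008G224000 and its neighbour Potri.008G224100 tree 3 was highest, with tree 1 at 0.503 and 0.506 of its level. Their counts were close, at 1491, 254 and 2994 reads against 1511, 320 and 3015 in trees 1, 2 and 3. Potri.008G224200 and Potri.008G224300 were close as well. Whether these loci share reads was not tested, so the 8 members may not be 8 separate measurements. The run from Potri.T140800 to Potri.T141200, carries identifiers with no chromosome number and has 4 members among 5 neighbours. It held 1.61%, 0.203% and 0.581% of the reads of trees 1, 2 and 3, and Potri.T141200 led it at 6830, 730 and 2611 CPM. The locus between its members, Potri.T140900, stood at 73.2, 19.4 and 39.5 CPM, a 3.78-fold range just under the 4-fold limit.

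**Figure D2:**
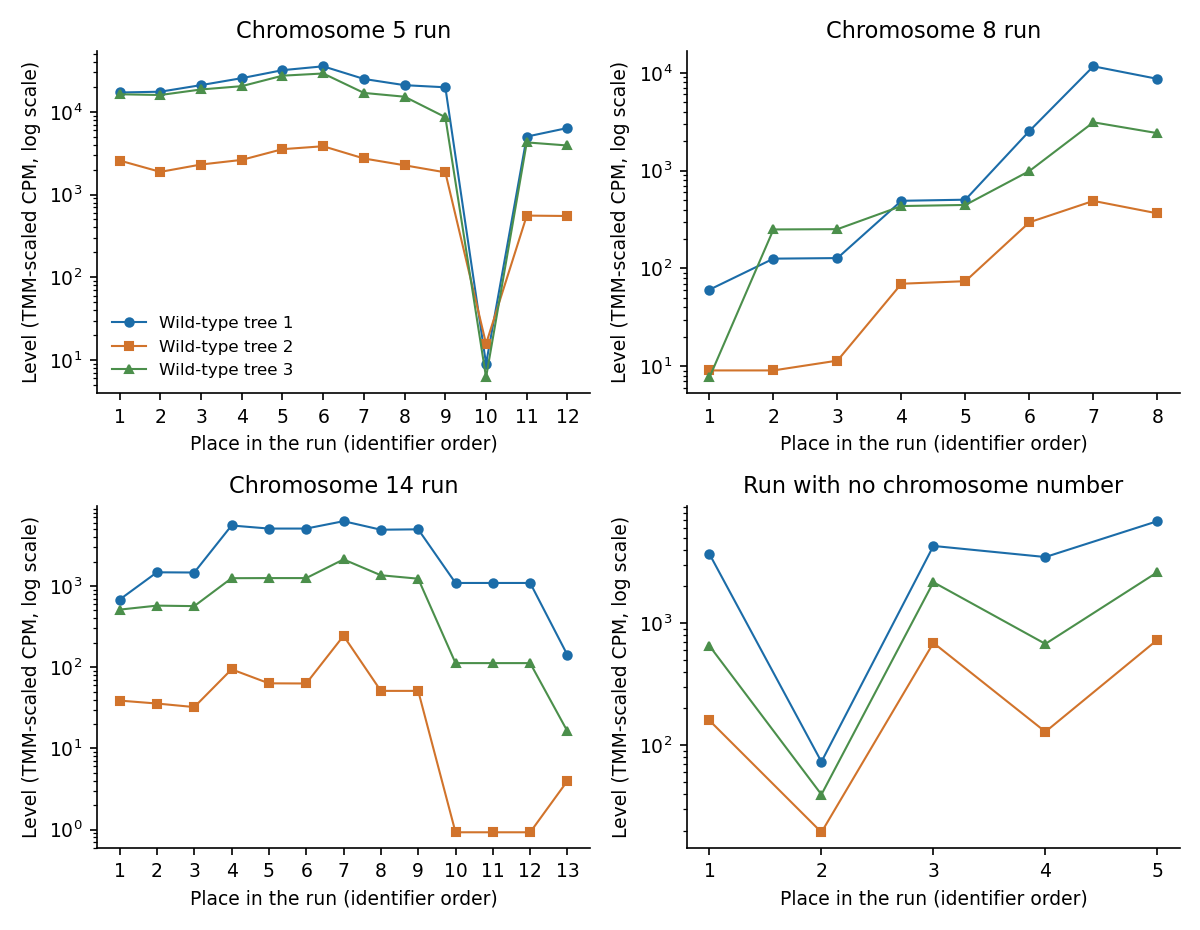
Level (TMM-scaled CPM, log axis) of each locus along the 4 variable runs, by its place in identifier order, in wild-type trees 1 (circles), 2 (squares) and 3 (triangles), including the loci inside a run that differed less than 4-fold. Tree 2 lies lowest at all members of the chromosome 5 and chromosome 14 runs, and the gap between trees 1 and 3 is wider on chromosome 14 (median ratio 4.07) than on chromosome 5 (1.22).

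Next to the runs, levels were lower and more even, or had another order of the trees. The locus just before the chromosome 5 run, Potri.005G132200, stood at 74.5, 64.8 and 82.6 CPM in trees 1, 2 and 3, and Potri.005G133600, the second after it, at 93.4, 87.1 and 100.5 CPM. Before the chromosome 14 run, Potri.014G185300 stood at 37.4, 35.6 and 19.3 CPM. These 3 loci lay within 2-fold across the trees. Before the chromosome 8 run, Potri.008G223800 stood at 2.28, 7.49 and 4.09 CPM, with tree 2 the highest. The chromosome 8 run lies near the end of its chromosome, with 21 further loci after it, whereas 118 loci follow the chromosome 14 run. In RefSeq's gene table, which is for assembly P.trichocarpa_v4.1 and matched none of the identifiers, 39 of the 235 ribosomal RNA genes are on chromosome 8, 22 on chromosome 14, 163 on chromosome 17 and 0 on chromosome 5. Which RNA the reads of the runs come from, ribosomal and organelle RNA included, was not tested. Depth moved with the run share: outside the runs trees 1, 2 and 3 had 9767186, 22814656 and 10173666 reads, and tree 2, the deepest, had the lowest share. The part of depth in this result was not tested.

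Outside the runs, the most abundant loci were nearly the same in the 3 trees. Potri.002G111900 led with 5053, 4761 and 5570 CPM in trees 1, 2 and 3, or 5128 ± 410 CPM (SD, n = 3), 435-fold over the median locus above 1 CPM. Next was Potri.006G136700 with 4594, 4532 and 5226 CPM. The locus at rank 3 was Potri.012G006400, one of the marker loci described below. These 3 held the first 3 places outside the runs in each tree, with places 2 and 3 exchanged in tree 1.

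Places 4 and 5 went to Potri.002G189000, with 4337, 3689 and 4332 CPM in trees 1, 2 and 3, and Potri.002G189200, with 4190, 3553 and 4176 CPM. They are separated by 1 locus, and their read counts differed by at most 3.81% in any tree. Whether they share reads was not tested. The locus between them, Potri.002G189100, stood far lower and was uneven, with 662, 209 and 490 CPM in trees 1, 2 and 3, a 3.17-fold range.

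The next 5 places outside the runs went to loci on 5 different chromosomes. Potri.009G085100 had 3302, 3167 and 3879 CPM in trees 1, 2 and 3, and Potri.010G141600 had 3166, 2886 and 3252 CPM. Potri.001G320500 followed with 2718, 2619 and 2958 CPM, then Potri.013G061800 with 2627, 2643 and 2925 CPM and Potri.017G059400 with 2362, 2383 and 2787 CPM. In all 5, tree 3 was the highest, by at most 1.22-fold over the lowest tree. Potri.001G320400, the direct neighbour of Potri.001G320500, ranked 15th outside the runs at 2070 ± 176 CPM (SD, n = 3).

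**Figure D3:**
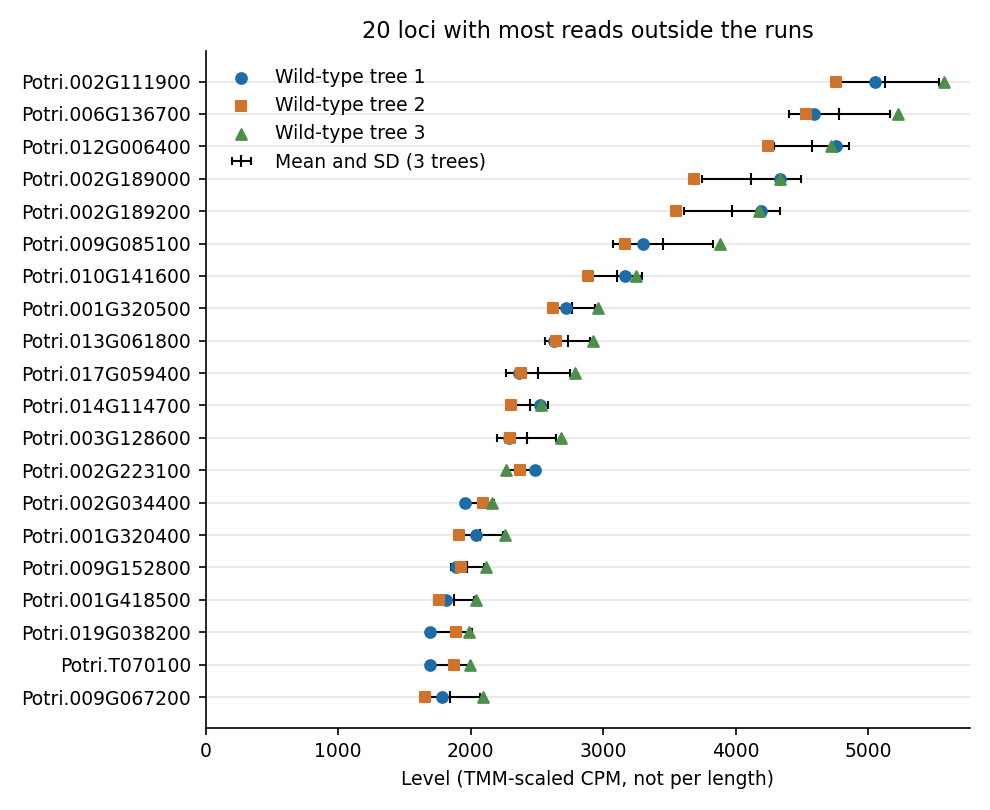
Levels (TMM-scaled CPM, not per length) of the 20 loci with the most reads outside the 4 variable runs in wild-type trees 1, 2 and 3, with the mean (tick) and SD (bar) over the 3 trees. Each locus keeps close to its place in all 3 trees, from 5128 ± 410 CPM for Potri.002G111900 to 1845 ± 226 CPM for Potri.009G067200 (SD, n = 3).

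The overlap of the leading loci can be put in counts. Of the 10 loci with the highest level outside the runs in each tree, 9 were shared by all 3 trees. Of the top 100, 90 were shared, and of the top 1000, 894. Trees 1 and 2 shared 955 of their top 1000, trees 2 and 3 shared 929 and trees 1 and 3 shared 905. By mean level the top 100 outside the runs spanned 715 to 5128 CPM, and 97 of them lay within 1.5-fold across the trees.

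An exception among these 100 was Potri.T006700, with 2006, 165 and 555 CPM in trees 1, 2 and 3, a 12.2-fold range in the same order as the chromosome 14 run. It is outside the runs only because a run needs at least 3 members. Its neighbour Potri.T006600 had 68.1, 17.3 and 37.4 CPM. Another 3 of the 100 are the direct neighbours Potri.010G218700, Potri.010G218800 and Potri.010G218900. The first had 1101, 769 and 1491 CPM in trees 1, 2 and 3, and the second 1432, 1274 and 1897 CPM. The third had 923, 758 and 1268 CPM, so that tree 3 was highest and tree 2 lowest at all 3.

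Of the top 100 outside the runs, 11 had a direct neighbour in the list, and 15 had 1 within 2 places. The same share was not computed for other loci, so no excess of neighbours is read from these counts. Beside those named above, the 15 included Potri.002G101200 and Potri.002G101300, at 1220 ± 99.7 and 1189 ± 92.6 CPM (SD, n = 3). Their counts differed by at most 3.44% in any tree. Also nearly equal were Potri.019G038200 and Potri.T070100, with 20049, 52913 and 23840 reads against 20033, 52696 and 23858 in trees 1, 2 and 3. Such near-equal counts leave the level of each single locus uncertain, because no source used here states how a read that aligns to several places was counted.

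The 3 loci named as markers of this tissue were all among the most abundant, and were even across the trees. They were named with results of these data known, so their high level is a description and not a check of the tissue. Potri.012G006400 had 4757, 4248 and 4719 CPM in trees 1, 2 and 3, or 4575 ± 283 CPM (SD, n = 3), a CV (SD as a share of the mean) of 6.2%. Potri.002G257900 had 1750, 1790 and 1905 CPM, or 1815 ± 80.4 CPM, a CV of 4.43%. Potri.009G099800 had 1629, 1596 and 1661 CPM, or 1629 ± 32.3 CPM, a CV of 1.98%.

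By mean level the markers ranked 13th, 42nd and 45th of all 41335 loci, and 3rd, 21st and 24th outside the runs. These places depend on keeping 1 model per locus. With the reads of all models of a locus summed, Potri.012G006400 stood at 4095 CPM and rank 20, and Potri.002G257900 at 812 CPM and rank 127. Potri.009G099800 then stood at 2869 CPM and rank 27. Because of the runs, the rank of Potri.002G257900 among all loci was 45 in tree 1, 28 in tree 2 and 38 in tree 3, although its level differed by only 1.09-fold. The same rank without the runs was 21, 19 and 22. Their SDs exceed the error of counting alone, which would give CVs of 0.382%, 0.611% and 0.644% for Potri.012G006400, Potri.002G257900 and Potri.009G099800. The next locus to Potri.002G257900 within the top 100 was Potri.002G257700, 2 places away, at 742 ± 58.8 CPM (SD, n = 3).

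Spread among the trees was small for most loci. Over the 23360 loci with at least 10 reads in each tree, the median CV was 10.02%. The CV expected from counting alone, a long-run size for each locus, had a median of 7.57%. The middle 50% of loci had observed CVs between 5.88% and 16.6%. Over the 12934 loci with a mean of at least 10 CPM the median CV was 7.64%, against 5.07% for counting, and 94.4% of these loci lay within 1.5-fold and 98.9% within 2-fold across the trees. With a CV from 3 trees, the value of any single locus is itself imprecise. Such a CV falls below its long-run size more often than above it. A median observed CV and a median counting CV are therefore unlike measures. The biological CV fitted by edgeR, a model value meant to leave out counting error and partly shared between loci of like level, had a median of 10.9% over the 23360 loci. That is above the median total CV of 10.02%, so it is not read here as the spread that remains once counting error is removed.

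The gap between the median CV and the median CV expected from counting alone was widest for abundant loci. Counting and other error add as squares, so this gap does not size the spread beyond counting. Outside the runs, the 60 loci of at least 1000 CPM had a median CV of 7.63%, against 0.668% from counting. The 1470 loci between 100 and 1000 CPM had 6.76% against 2.08%. Among 11368 loci from 10 to 100 CPM the medians were 7.74% and 5.43%, and in the 10234 filtered loci from 1 to 10 CPM they were 14.8% and 13.0%. In the 3 classes above 10 CPM the observed CV thus stayed between 6.76% and 7.74% while the counting CV shrank. The fitted biological CV ran otherwise, with medians of 20.6%, 11.8%, 9.13% and 13.2% in the same 4 classes from high to low. In the 3 highest classes it exceeded the observed CV, and the cause was not tested.

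**Figure D4:**
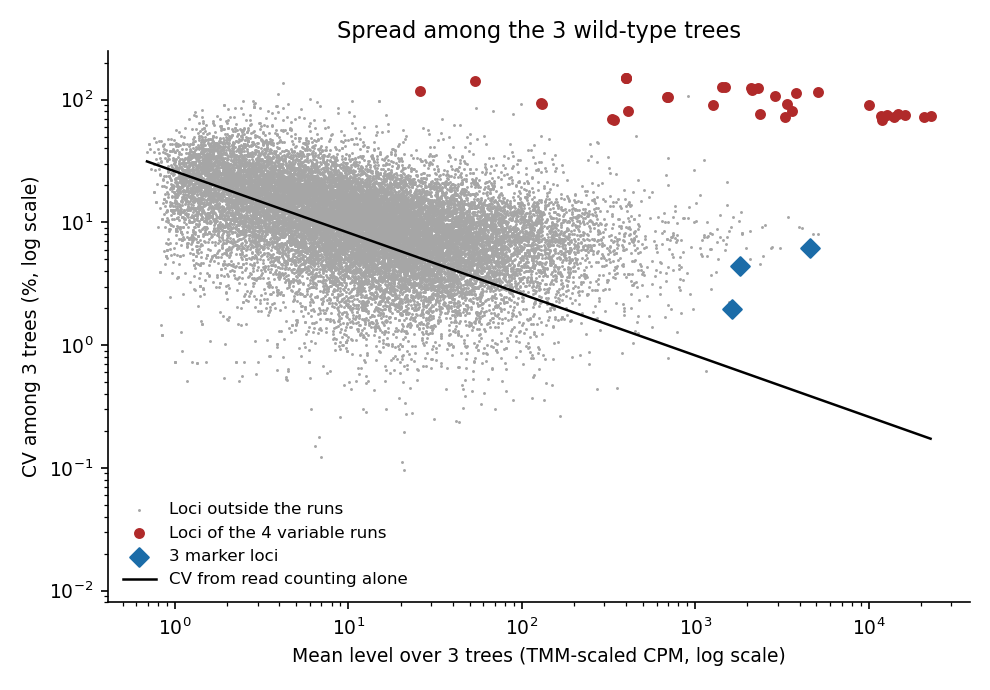
CV among the 3 wild-type trees (%, log axis) against mean level (TMM-scaled CPM, log axis) for the 23360 loci with at least 10 reads in each tree; the line is the CV that read counting alone gives. The 36 loci of the variable runs (red) stand above nearly all others of their level, and the 3 marker loci (diamonds) have CVs of 1.98% to 6.2%.

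By rank correlation, and by ratios outside the runs, trees 1 and 3 were the farthest apart. Over the 23360 loci, Spearman correlations of level across loci were 0.988 for trees 1 and 2, 0.984 for trees 1 and 3 and 0.986 for trees 2 and 3. By Pearson correlation of log2 level, trees 1 and 2 were lowest instead, at 0.9835 against 0.9845 for trees 1 and 3. Loci are not independent replicates, and these values are descriptions. Trees 1 and 3 were also the libraries with the fewest reads, and the part of counting error in these distances was not tested. Outside the runs and above 10 CPM, the median size of the log2 ratio was 0.11 between trees 1 and 2, 0.15 between trees 1 and 3 and 0.13 between trees 2 and 3. Of the same loci, 33 were at least 2-fold higher in tree 1 than in tree 3 and 42 at least 2-fold higher in tree 3. Between trees 1 and 2 these numbers were 30 and 14, and between trees 2 and 3 they were 12 and 27. Of these 12898 loci, tree 3 was the highest at 40.1%, tree 1 at 33.2% and tree 2 at 26.6%. Tree 1 was the lowest at 35.2%, tree 3 at 34.9% and tree 2 at 29.9%. Tree 2, the deepest library, was thus least often at either end.

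Among the loci of at least 10 CPM, 139 differed 2-fold or more between the highest and the lowest tree (1.07%), 61 differed 3-fold or more and 44 differed 4-fold or more. The runs held 36 of the 44, and 39 of the 44 were highest in tree 1 and lowest in tree 2. Without tree 2 the number past 4-fold was 13, without tree 1 it was 32 and without tree 3 it stayed at 44. Past 2-fold were 69, 92 and 84 loci without trees 1, 2 and 3. Just inside the 4-fold limit were Potri.016G031400 and Potri.004G012100, at 4.58-fold and 4.18-fold. Just outside were Potri.013G139900 and Potri.T006600, at 3.99-fold and 3.94-fold.

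Outside the runs 103 loci differed at least 2-fold, a lower limit than the 4-fold that set the runs. The order of the trees was mixed among these 103. Tree 3 was highest at 47, tree 1 at 45 and tree 2 at 11. The commonest order, tree 3 highest and tree 1 lowest, was met at 40 of the 103. The order seen at every member of the chromosome 14 run, tree 1 highest and tree 2 lowest, was met at 24. At the 4-fold limit 8 loci lay outside the runs, and most of these 8 had that order too. The exceptions were Potri.016G031400 and Potri.004G012100, highest in tree 3 and lowest in tree 1. The mixed order is therefore a trait of the 2-fold limit and not of all loci outside the runs.

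Of these 103 loci, 19 fell into 8 groups of neighbours with at most 1 locus between them. In each of the 8 groups all members were highest in the same tree, which in 1 group follows from identical counts. How often neighbours share their highest tree over all loci was not counted, so this is a description. On chromosome 5, far from the run, 4 loci from Potri.005G163300 to Potri.005G163700 summed to 80.1 CPM in tree 1, 202 CPM in tree 2 and 241 CPM in tree 3. On chromosome 7, Potri.007G013000 and Potri.007G013100 summed to 334, 443 and 778 CPM in trees 1, 2 and 3. Tree 3 was highest in both groups. On chromosome 13, 3 loci from Potri.013G139800 to Potri.013G140100 summed to 349, 50.5 and 141 CPM, with tree 1 highest and tree 2 lowest, as in the chromosome 14 run. The group with identical counts in every tree was Potri.T046500 and Potri.T046600, which are read as 1 measurement.

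The loci with the lowest CV above 100 CPM were Potri.001G000900, Potri.016G056200, Potri.007G014800, Potri.001G280200 and Potri.014G025400. Potri.001G000900 had 166.4, 166.4 and 165.6 CPM in trees 1, 2 and 3, a CV of 0.266%. Potri.014G025400 had 352, 355 and 355 CPM. All 5 CVs lay under the 1.38% to 2.43% that counting alone gives for these loci. Values this low come from taking the lowest of many loci, and do not show that these loci vary less than others.

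The chromosomes contributed reads in stable proportions once the runs were left out. Chromosome 1 held 11.6 ± 0.017% of the remaining reads (SD, n = 3), chromosome 2 held 8.83 ± 0.10% and chromosome 6 held 7.95 ± 0.042%. Set against its share of loci, chromosome 2 drew 1.38 times its part and chromosome 9 drew 1.35 times. Chromosomes 11 and 17 drew 0.725 and 0.761 times theirs. The 1821 loci with no chromosome number drew 0.433 times their part, and only 36.1% of them reached 1 CPM, against 47.6% to 62.6% of the loci on numbered chromosomes. With the runs included, chromosome 5 held 24.0%, 8.53% and 21.4% of the reads in trees 1, 2 and 3, and chromosome 14 held 6.81%, 4.50% and 4.66%. Of the top 100 loci outside the runs, chromosome 1 carried 15, chromosome 2 carried 11, chromosome 10 carried 10 and chromosome 7 carried 1.

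**Figure D5:**
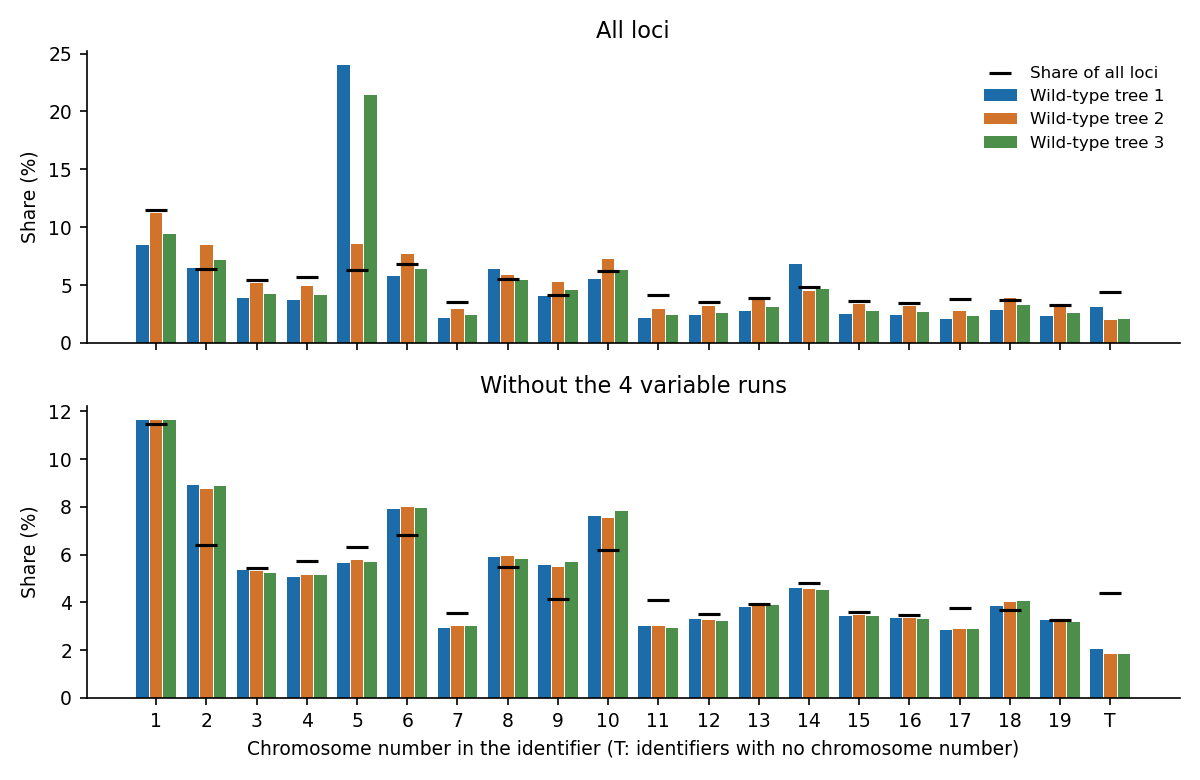
Share of reads (%) by chromosome in wild-type trees 1, 2 and 3 (bars, from 0) with all loci (upper) and without the 4 variable runs (lower); black dashes give each chromosome's share of all loci. The trees differ on chromosome 5 in the upper panel (24.0%, 8.53% and 21.4%) and lie close together on every chromosome in the lower one.

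Beyond the groups named, neighbouring loci resembled each other little in level. Across 4865 pairs of direct neighbours outside the runs, above 10 CPM and with no identical counts, the Spearman correlation of mean level was 0.061, and it was 0.0045 for loci 100 places apart. The log2 ratio of tree 1 over tree 3 correlated at 0.16 between direct neighbours, 0.087 at 2 places, 0.030 at 10 places and -0.0076 at 100 places. The ratio of tree 1 over tree 2 gave 0.15, 0.096, 0.024 and -0.0088 at the same distances. These are weak correlations across pairs that share libraries and can share reads where neighbours overlap, and are given as a description.

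Shared counting could be sized in part. Of 25313 loci with at least 30 reads over the 3 trees, 1580 (6.24%) had counts identical to those of another locus in all 3 trees, in 655 sets holding 0.90% of the reads. At low counts identity can arise by chance, and only 151 of these sets lay on 1 chromosome. Among loci with at least 500 reads there were 36 such sets with 128 loci. Of the 36, 31 lay on 1 chromosome and 28 within 20 places, the largest with 13 loci. A set of 10 loci between Potri.019G007000 and Potri.019G008800 had 1785, 3945 and 1582 reads each in trees 1, 2 and 3. Within loci, 5638 of the 12552 with several models and at least 30 reads (44.9%) had the same counts for all their models.

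Loci with more annotated models were expressed more often and at higher levels. Of the 27082 loci with 1 model, 42.2% reached 1 CPM, with a median of 8.08 CPM among those. Of the 4192 loci with 4 or more models, 92.5% reached it, with a median of 19.0 CPM. The 10061 loci with 2 or 3 models lay between, at 82.6% and 13.96 CPM. No transcript length was available, so these levels are not per length. The model with the most reads was kept, so loci with more models had more counts to take the highest from. With the lowest numbered model instead, 23623 loci of all classes reached a mean of 1 CPM, against 23627. The part of this choice in the difference between the classes was not tested.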

How the data were processed

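Total RNA of developing xylem was extracted by the CTAB method and made into libraries with an Illumina TruSeq RNA kit, per the labels' protocols. Raw read counts per transcript model, not normalized, make up the single table that the authors deposited. It has 73013 models as rows and a column for each tree. TopHat2 2.0.3, TopHat, Bowtie and bedtools 2.14.2 are named in the submitters' processing notes, with no role for each. Neither the genome build and annotation nor the handling of multiply aligned reads is given in the sources used here. Every row names a locus.

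Columns were assigned by the tree number in their names. Since reads in stretches shared by models count at each, the model with the most reads over the 3 wild-type trees was kept per locus. Levels used TMM factors (edgeR 4.0.16, R 4.3.3) from loci with at least 10 reads in each tree. The biological CV is the root of the edgeR tagwise dispersion with an intercept-only design. Counts simulated with a biological CV of 10% at every locus gave back a common value of 10%, changed loci left out. The tagwise values themselves were not checked by simulation. The counting CV is the root of the mean of 1 over the counts. Libraries ranged from 12580135 to 23611859 reads. The planned rule named the 3 markers, the 20 most abundant loci, the 10 widest ranges above 10 CPM and the 5 lowest CVs above 100 CPM. Loci outside the runs and neighbour groups were named after their values were seen. Planned lists by gene function and per-length levels could not be run, because none of the identifiers matched the reference table. The members and lists were chosen with earlier results of these data known. No test between groups was made. Alternatives were DESeq2 1.42.0 size factors and dispersions, library totals, other filters, other choices of model, identical loci counted once, and leaving out each tree.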

Additional observations from a re-analysis of the deposited data

How the results depend on the processing

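Alternatives were judged by whether a value moved beyond the SD between trees (for correlations, between pairs of trees) or, for counts and CVs, by more than 1.5 times. Leaving out the variable runs was chosen after seeing the data. Without the chromosome 5 stretch (its first 9 loci) the top 10 loci held 5.396% of the reads and 1220 loci held 50%, against 13.6% and 791 in the mean profile of the 3 trees. Without the 4 runs the top 10, 100 and 1000 loci held 4.48%, 17.4% and 44.6%, 1377 loci held 50% of the reads, and 11 loci passed 4-fold. With the runs kept in the totals, 8 of the loci past 4-fold lay outside them. With library totals the median CV was 18.8%, the median biological CV 20.1% and the loci past 2-fold 282. With the sum over models the top 10 loci held 8.78% and the 4 runs 7.72%, against 16.5% in the 4 runs with 1 model per locus. On that scale the top 100 outside the runs held 22.2%, and the lowest Spearman correlation between trees was 0.988; it was 0.966 for loci above 10 CPM. Leaving out 1 tree gave 69 to 92 loci past 2-fold, 13 to 44 past 4-fold (13 without tree 2) and lowest correlations of 0.984 to 0.988. It gave 4-run shares from 11.3% (without tree 1) to 23.1% (without tree 2), and 537 to 982 loci for 50% of the reads. For the shifts with library totals and summed models the cause was not tested. Of the main values recomputed, 95 kept within these limits, DESeq2 size factors included. That count is not a measure of how firm the results are. Some values could not move, such as rank correlations under another scaling or shares outside the runs once the runs were left out. The share in the 4 runs was judged against an SD of 12.1%. So 7.72% with summed models and 4.81% without the chromosome 5 stretch counted as within the limits. The ranks of the markers Potri.002G257900, Potri.012G006400 and Potri.009G099800 were 127, 20 and 27 with summed models and 21, 3 and 24 without the runs. No paired analysis was possible because only 1 group was used. Not run for want of lengths and gene names were levels per kilobase and functional lists. From 1 to 10 CPM the median CV expected from counting was 13.0% and the median observed CV 14.8%, which are unlike measures. Counting error of that size limits what these depths say of single loci there.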
